A study of Mus musculus with 30 samples.

Results

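Rubicon, the product of Rubcn, is a negative regulator of the class III phosphatidylinositol 3-kinase (PI3K), the enzyme complex that makes phosphatidylinositol 3-phosphate (PI3P) on endosomes and autophagosomes. The messenger RNA of Rubcn and of 6 genes whose products work with it was followed in mouse dendritic cells. Members were taken by gene symbol, and each of the 7 symbols stood on 1 row of the 25611 gene rows in the count table. All 7 passed the filter on low counts, which left 14808 genes for testing. The questions were whether the partners were higher where Rubcn was knocked out, and whether they fell with Rubcn when the cells were given dying cells.

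The complex is built on a shared core of the lipid kinase VPS34 (gene Pik3c3), its regulatory subunit VPS15 (Pik3r4) and Beclin 1 (Becn1). With ATG14 (Atg14) the core forms the complex that starts canonical autophagosomes, and with UVRAG (Uvrag) it forms the complex of endosomes. Rubicon binds the UVRAG form, restrains canonical autophagy and endosome maturation, and is required for LC3-associated phagocytosis, in which LC3 is attached to single-membrane phagosomes that hold dead cells or microbes. PLEKHM1 (Plekhm1) carries a domain related to that of Rubicon, binds the small GTPase RAB7 and helps endosomes and autophagosomes fuse with lysosomes.

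The cells were grown from bone marrow of wild type (WT) mice or of mice with a Rubcn knockout (KO), for 6 to 7 days with the growth factor FLT3L at 200 ng/ml. They were left untreated, or received either ovalbumin (OVA, a soluble protein antigen) or dying Jurkat cells, which come from a human T-cell leukaemia and had been made apoptotic. Treatment lasted 30 min or 4 h. Genotype and treatment thus made 10 groups, with 3 libraries in each and 30 in all. The labels do not say which part of Rubcn was deleted, give no strain, age or vehicle, and do not say whether replicates came from separate mice or cultures, so p-values measure the spread between these libraries, which may be technical.

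Library totals lay between 9.73 M and 51.6 M counts (median 44.9 M), and the shallowest was replicate 3 of KO with 30 min of OVA. Replicate 2 of KO at 4 h of Jurkat cells stood apart from its group: Rn45s, the ribosomal RNA precursor, took 3.90% of its counts, while the leading gene of its 2 sister libraries was Cd74 at 1.40% and 1.42%. Its counts differed from theirs with a chi-square per degree of freedom of 128.8 and 133.8, against 4.97 between the sisters. These values include Rn45s itself, and values without that gene were not taken. Levels are in CPM, counts relative to the library total, here scaled with TMM, a method that assumes most genes do not change. The TMM factors were 0.765 to 0.842 in the 6 libraries of 4 h with Jurkat cells and 1.03 to 1.07 in the 24 others. All 9 dendritic cell markers listed were detected in each group, and the levels of these and of subset markers at 4 h of Jurkat cells stand beside the members' values there. Of 28 T-lineage markers, 25 were in the table, and the 14 of these that were low in cells without Jurkat cells summed to at most 4.44 CPM there. With Jurkat cells these 14 summed to 40.0 to 41.9 CPM in WT and 19.1 to 29.3 CPM in KO at 30 min, and to 86.8 to 116.1 CPM in WT and 64.4 to 83.0 CPM in KO at 4 h. How reads of the human cells were treated is not given in the sources used here. The 8 basophil or mast cell markers also differed between the genotypes, with sums of 20.4 to 38.2 CPM in WT and 56.6 to 111.1 CPM in KO. Sums of 8 stromal markers were 496.0 to 919.1 CPM in WT and 706.4 to 1262 CPM in KO, and sums of 8 plasmacytoid dendritic cell markers were 2247 to 3543 and 1750 to 2758 CPM. The part of these cell types in the members' values was not tested. In bulk RNA, fewer cells of a type and less RNA per cell cannot be told apart.

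RefSeq (GRCm38.p6) promoter windows, from 250 bases before to 50 bases after a start site, were matched for 5 of the 7 members and gave 6 windows. The motif CACGTG, a palindrome and so the same on both strands, was present in 1 Rubcn window and in the Atg14 window. Of all 32851 windows of this length, 7.15% held it. The second motif searched, GAAA repeated after a gap of any 2 bases, on either strand, was in 3.44% of all windows and in none of the 6. The Rubcn and Atg14 windows that hold it are shown with CACGTG in capitals. The other Rubcn window and those of Pik3r4, Uvrag and Plekhm1 held none. No window was matched for Becn1 or Pik3c3, and the part of the motif in the members' values was not tested. Rubcn is at chr16:32868317-32868616 and Atg14 at chr14:47568385-47568684, both on the minus strand, and the motif begins at -88 and -1 relative to the start site.
Rubcn: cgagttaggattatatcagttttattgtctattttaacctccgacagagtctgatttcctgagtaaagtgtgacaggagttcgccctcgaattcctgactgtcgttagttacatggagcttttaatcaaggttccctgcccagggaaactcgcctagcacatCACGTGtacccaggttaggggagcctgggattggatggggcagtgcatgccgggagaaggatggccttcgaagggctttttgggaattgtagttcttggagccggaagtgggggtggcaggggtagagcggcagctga
Atg14: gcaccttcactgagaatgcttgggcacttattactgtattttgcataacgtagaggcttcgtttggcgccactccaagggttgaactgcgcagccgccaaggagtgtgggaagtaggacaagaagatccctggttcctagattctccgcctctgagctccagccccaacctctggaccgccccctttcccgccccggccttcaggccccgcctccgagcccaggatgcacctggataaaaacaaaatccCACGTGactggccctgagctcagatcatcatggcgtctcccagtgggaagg
These matches describe letters in the windows, not sites at which a factor was measured.

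In untreated WT cells the 7 transcripts differed several-fold in abundance. Per kilobase of exon (GENCODE M21), Uvrag was at 41.3 ± 0.77 CPM per kb (SD, n = 3), followed by Becn1 at 23.6 ± 0.20 and Rubcn at 16.9 ± 0.85 CPM per kb. Plekhm1 was at 16.6 ± 0.88, Pik3c3 at 14.1 ± 0.11, Pik3r4 at 9.45 ± 0.39 and Atg14 at 6.56 ± 0.27 CPM per kb. Rubcn and Plekhm1 were the neighbours in this order whose libraries overlapped, at 16.4 to 17.9 and 15.8 to 17.6 CPM per kb. On these lengths the subunit of the endosomal form, Uvrag, was thus the highest member and the subunit of the autophagosomal form, Atg14, the lowest. The intervals of the count table are shorter than the annotation that gave the lengths. Becn1 starts at base 101288267 in the count table against 101285952 in the annotation, and Uvrag at 98886743 against 98885021. The exon length that was counted is not known, so the order per length, Uvrag against Becn1 included, is not settled.

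**Figure D1:**
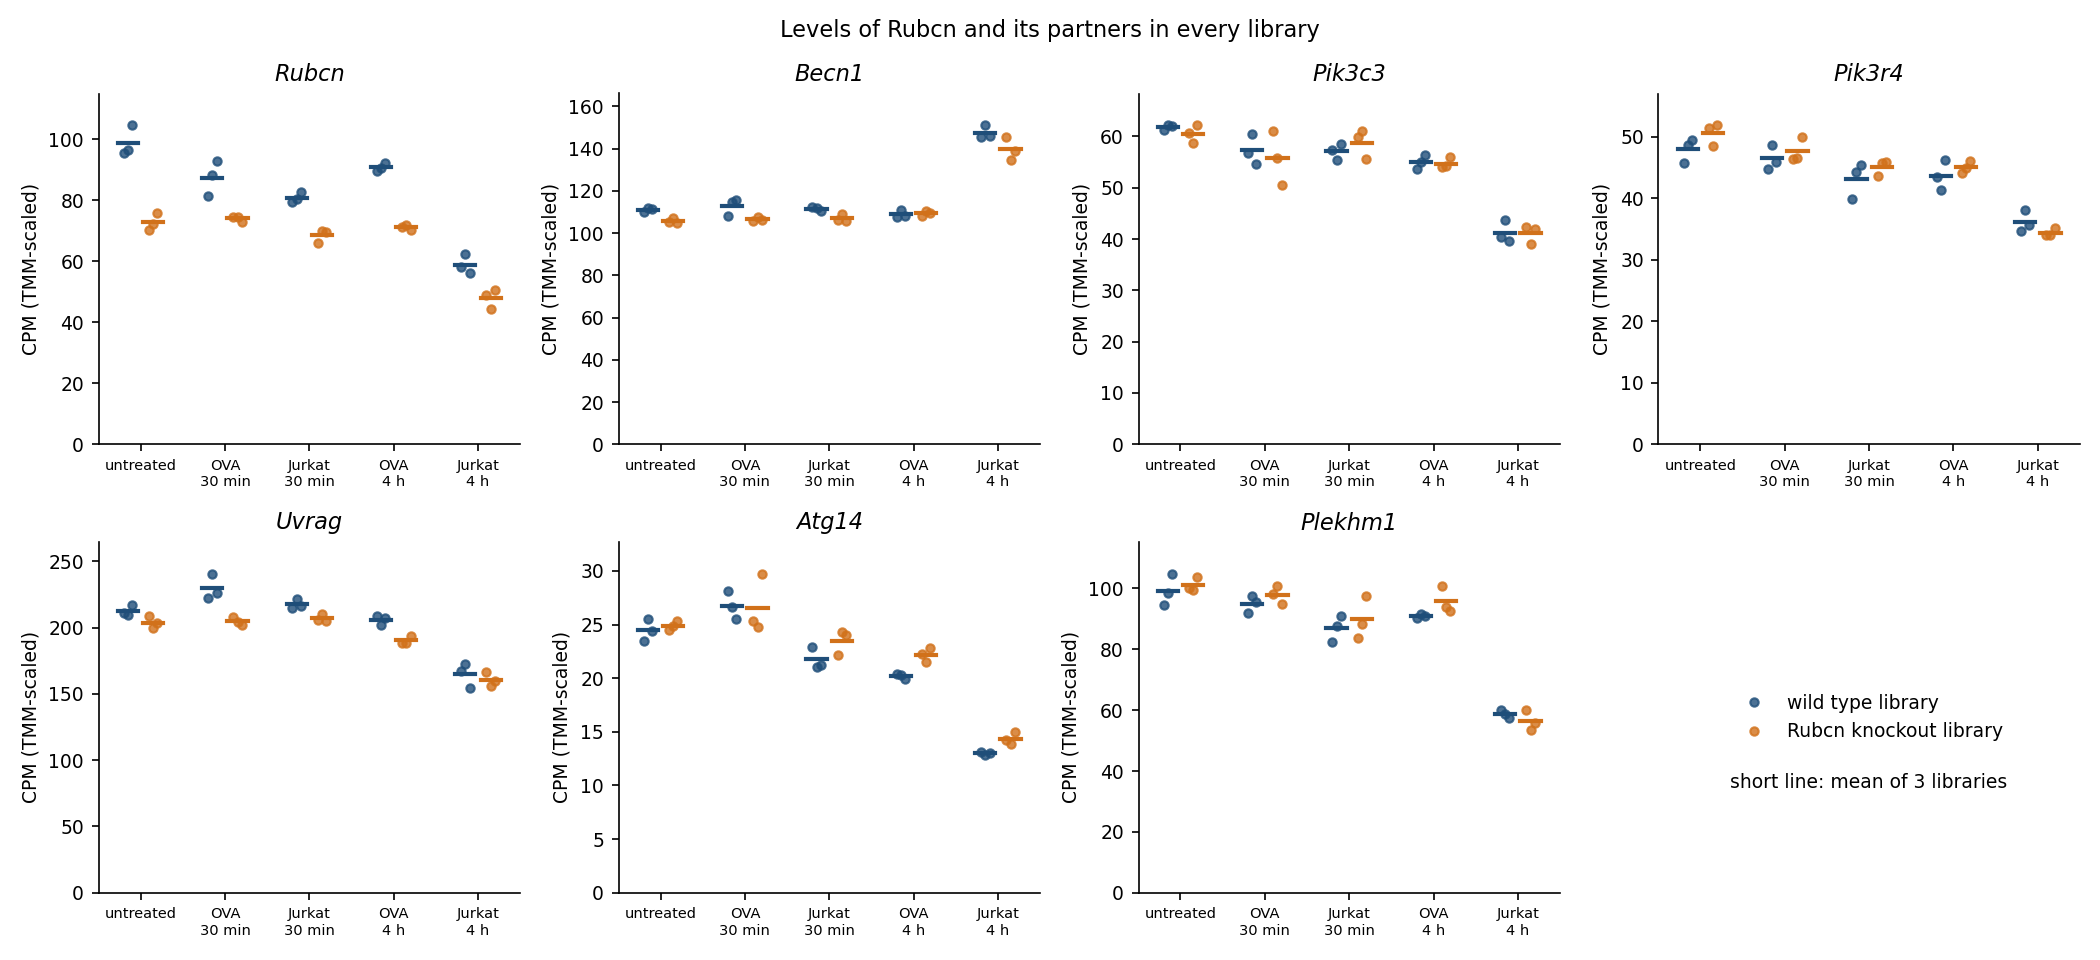
Levels of the 7 members in each of the 30 libraries, in CPM on TMM-scaled library sizes, by condition. Points are libraries and short lines are means of 3. Rubcn is lower in KO in every condition, and at 4 h of Jurkat cells Becn1 is on this scale the member above its untreated level, at 134.4 to 151.0 CPM, while the other 6 are below theirs.

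Rubcn itself, as the targeted gene, was examined first. In the table it spans chr16:32821702-32868366 on the minus strand (mm10, Entrez 100502698). This interval stops 9363 bases short of the upstream end that RefSeq gives the gene, so reads from further upstream lie outside it. The 3 untreated WT libraries held 95.6, 96.6 and 104.6 CPM and the 3 untreated KO libraries 70.4, 72.2 and 75.8 CPM. Every KO library was below every WT library, and this was so in each of the 5 conditions. Averaged over the 5 conditions, the log2 fold change was -0.31 (95% interval -0.36 to -0.27, edgeR quasi-likelihood FDR 2.78e-12), a KO level of 80.5% of WT. Because most Rubcn reads remained in KO and the table does not divide the gene into exons, these counts do not show whether the remaining transcript encodes Rubicon, and they check the genotype labels only in part.

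The Rubcn deficit varied as measured, but its differences between conditions did not pass the test. It was -0.44 in untreated cells (-0.54 to -0.35, edgeR FDR 1.69e-07) and -0.35 at 4 h of OVA (-0.45 to -0.25, FDR 4.81e-06). It was -0.30 at 4 h of Jurkat cells (-0.40 to -0.19), -0.24 at 30 min of OVA (-0.34 to -0.14) and -0.24 at 30 min of Jurkat cells (-0.34 to -0.14). At 30 min of OVA the WT libraries held 81.3, 88.3 and 92.9 CPM, below the untreated WT range, while the KO libraries held 73.0, 74.6 and 74.7 CPM, within the untreated KO range. A test of that difference in response gave +0.21 (0.07 to 0.34, unadjusted p = 0.0051 by edgeR, FDR 0.894), which does not pass the threshold over all genes. The differences in response were +0.20 at 30 min of Jurkat cells (edgeR FDR 0.441), +0.15 at 4 h of Jurkat cells (FDR 0.235) and +0.09 at 4 h of OVA (FDR 0.780).

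The genes on either side of Rubcn were read as well, chosen after the values were seen as the 3 nearest tested genes in each direction. Of these 6, Fyttd1, an mRNA export adaptor gene 9418 bases from the end of the Rubcn interval, was at -0.07 in KO against WT averaged over conditions (edgeR FDR 0.0198). Lrch3, the next gene out, was at -0.17 (FDR 6.57e-06), and Tfrc, the transferrin receptor, was at -0.12 (FDR 0.00976). Tnk2, a tyrosine kinase gene, was higher at +0.13. Tnk2os and Iqcg, both under 1 CPM, were not called. The part of these neighbours in the Rubcn result was not tested.

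With TMM scaling edgeR called no partner higher in the knockout in any single condition, though Atg14 lay above WT without overlap in 2 of them. Over 6 partners and 5 conditions, 30 tests, none was called higher by edgeR at FDR under 0.05 and 2 were called lower, both of them Uvrag. At an unadjusted p under 0.05 by edgeR, 3 of the 30 were higher, all Atg14, and 5 were lower, of Becn1 and Uvrag. The share of all genes at that unadjusted threshold was not counted. DESeq2 also called none of the 30 higher, and with total counts edgeR called 2, both Atg14. These were at 4 h of OVA and 4 h of Jurkat cells, where 1330 and 2999 of 14808 genes were called higher with total counts. The highest upper bound of any 95% interval among the 30 was 120.4% of the WT level, for Atg14 at 4 h of Jurkat cells, so rises up to that size are within the error of that comparison.

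Counted with Rubcn, 1 of 7 members was called in untreated cells, as lower, where edgeR called 9.97% of all genes and 3.97% as lower. After 30 min of OVA 2 of 7 were called, both lower (12.4% of all genes, 6.13% lower). After 30 min of Jurkat cells 1 of 7 was lower (9.25% of all genes, 3.67% lower). The 4 h times had 2 of 7 lower with OVA (12.6% of all genes, 6.35% lower) and 1 of 7 lower with Jurkat cells (22.9% of all genes, 13.5% lower). Setting Rubcn aside, 0 or 1 of the 6 partners was called in each condition. With the 5 conditions averaged, which narrows the error, 4 of 7 were called, 3 lower and 1 higher. That stands beside 36.4% of all genes called, 18.7% lower and 17.7% higher.

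**Figure D2:**
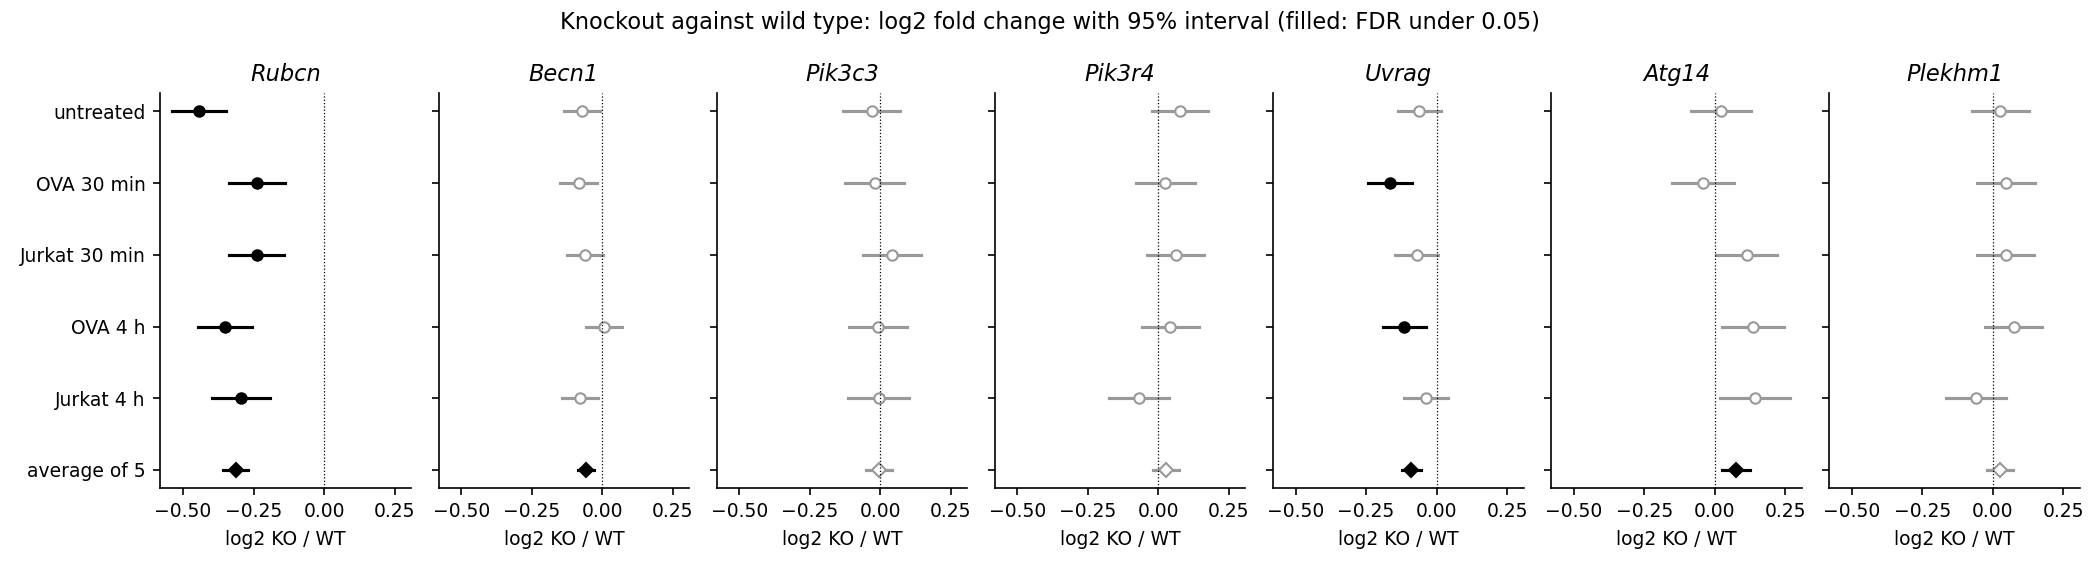
Log2 fold change of KO against WT for each member, by condition and averaged over the 5 conditions, with 95% intervals; filled symbols have an edgeR FDR under 0.05. Rubcn lies left of 0 in every row, from -0.44 to -0.24, and partner values stay between -0.17 and 0.14.

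Uvrag, the Rubicon-binding subunit, was the partner with the clearest difference. Its untreated libraries held 209.9, 211.1 and 217.3 CPM in WT and 199.5, 203.3 and 208.8 CPM in KO, so the groups lay side by side without overlap. At 30 min of OVA the WT libraries held 222.3, 226.1 and 240.6 CPM and the KO libraries 202.1, 204.1 and 207.8 CPM, again without overlap. Its log2 fold change there was -0.17 (-0.24 to -0.09, edgeR FDR 0.00378), a KO level of 89.2% of WT. With 4 h of OVA it was -0.11 (edgeR FDR 0.0407), a call that was lost when any 1 of the 6 libraries compared was left out. Averaged over the conditions Uvrag was at -0.09 (-0.12 to -0.06, edgeR FDR 9.25e-05), 94.0% of WT, and its value was below 0 in 5 of 5 conditions.

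Becn1, the scaffold subunit, was slightly lower. The 3 untreated WT libraries held 110.1, 111.2 and 112.1 CPM and the KO libraries 105.0, 105.1 and 107.1 CPM, and KO lay below WT without overlap in 4 of 5 conditions, 4 h of OVA being the exception. No single condition was called by edgeR with TMM, while DESeq2 called untreated cells (-0.09, FDR 0.0488), 30 min of OVA (-0.10, FDR 0.0230) and 4 h of Jurkat cells (-0.10, FDR 0.0116). Without WT OVA 30 min replicate 1 or KO Jurkat 4 h replicate 1, edgeR called that condition too (both -0.11). The average was -0.06 (-0.09 to -0.03, edgeR FDR 0.00163), 96.1% of WT, and it was not called when libraries were scaled to total counts (-0.02, edgeR FDR 0.169). In the table the end of Becn1 overlaps 435 bases of Cntd1 on the other strand, which had a mean of 74.8 counts per library.

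Atg14, the subunit of the autophagosomal form, was above 0 in 4 of 5 conditions, as were Pik3r4 and Plekhm1, and was the 1 of these whose average edgeR called with TMM. Its untreated libraries held 23.5, 24.4 and 25.5 CPM in WT and 24.5, 24.8 and 25.3 CPM in KO, and overlapped. At 4 h of OVA the KO libraries held 21.5, 22.2 and 22.8 CPM, all above the WT libraries at 19.9, 20.3 and 20.4 CPM, and at 4 h of Jurkat cells the KO libraries held 13.8, 14.2 and 15.0 CPM against 12.8, 13.0 and 13.1 CPM. The log2 fold changes at these times were 0.13 (0.03 to 0.24, edgeR FDR 0.103) and 0.14 (0.02 to 0.27, FDR 0.0883), neither called. With scaling to total counts both were called, at 0.17 (edgeR FDR 0.0358) and 0.22 (FDR 0.00899). That scaling raised the genes called higher from 921 to 1330 of 14808 at 4 h of OVA and from 1388 to 2999 at 4 h of Jurkat cells. The median of all genes was then 0.03 and 0.07, in place of -0.00 and -0.01. The average over 5 conditions was 0.07 (0.02 to 0.12, edgeR FDR 0.0169), 105.3% of WT. DESeq2 did not call it (0.06, FDR 0.0711), nor did edgeR over the 3 conditions without Jurkat cells (0.04, FDR 0.372).

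The kinase Pik3c3, its partner Pik3r4 and Plekhm1 were not called in any condition or in the average. Pik3c3 was at 61.3, 62.1 and 62.2 CPM in untreated WT libraries and 58.7, 60.8 and 62.1 CPM in KO, and its average log2 fold change was -0.00 (-0.05 to 0.04). Pik3r4 was at 0.03 (-0.02 to 0.07) and Plekhm1 at 0.03 (-0.02 to 0.07). These intervals put the averaged KO level of each within 91.8% to 109.0% of WT, the bounds over all 6 partners. With scaling to total counts Pik3r4 (0.06, edgeR FDR 0.0304) and Plekhm1 (0.06, FDR 0.0383) were called higher, and the median of all genes in the averaged comparison was then 0.03 in place of -0.01.

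Ratios within a library, which do not depend on how libraries are scaled, were taken to compare members with each other. The log2 ratio of Rubcn to the mean of the core genes Becn1, Pik3c3 and Pik3r4 was 0.52 ± 0.06 in untreated WT and 0.08 ± 0.05 in untreated KO (SD, n = 3). KO lay below WT without overlap in each of the 5 conditions, by 0.21 to 0.43. The log2 ratio of Atg14 to Uvrag was higher in KO by 0.09 in untreated cells and by 0.15 at 30 min of OVA, with overlapping libraries (exact permutation p = 0.2 and 0.3, two-sided). The second of these was 0.06 without the shallow KO OVA 30 min replicate 3, which stood at -2.77 against -3.04 in both sister libraries. It was higher without overlap by 0.18 at 30 min of Jurkat cells, by 0.25 at 4 h of OVA and by 0.18 at 4 h of Jurkat cells. With 3 libraries against 3 the smallest p of the exact permutation test is 0.1, which was reached in each comparison without overlap and became 0.117 after adjustment over the 14 ratio tests, so no ratio test could pass 0.05.

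**Figure D3:**
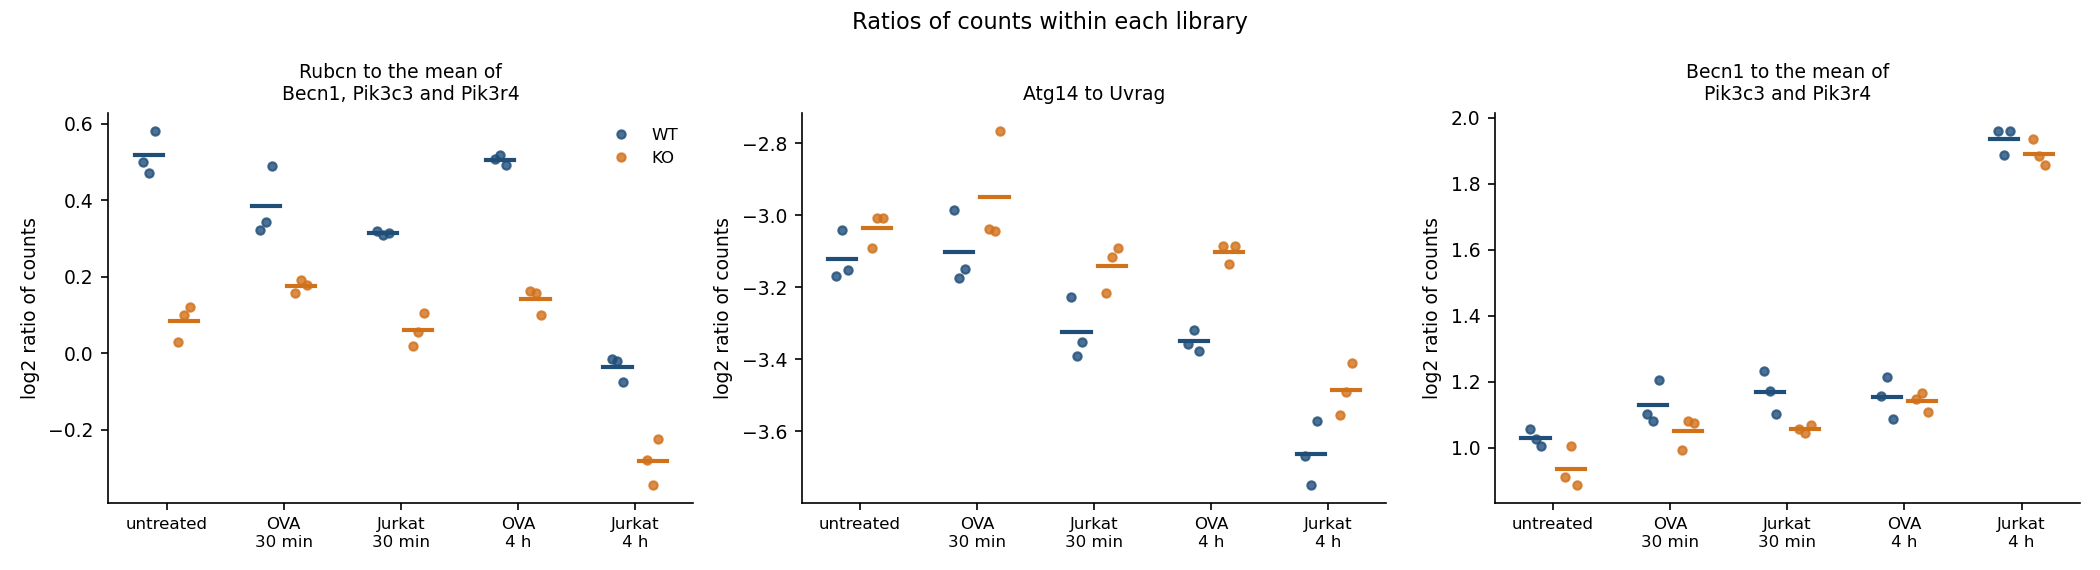
Log2 ratios of counts within each library: Rubcn to the mean of Becn1, Pik3c3 and Pik3r4, Atg14 to Uvrag, and Becn1 to the mean of Pik3c3 and Pik3r4. Points are libraries and short lines means of 3; the first ratio is lower in KO throughout, and the third stands at 1.94 (WT) and 1.89 (KO) at 4 h of Jurkat cells against 1.03 and 0.93 in untreated cells.

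After 4 h with apoptotic Jurkat cells, all 7 members differed from untreated cells in both genotypes, 6 of them lower and, except with scaling to total counts, Becn1 higher. The background was high: in WT edgeR called 79.5% of all genes (38.9% higher, 40.6% lower) and in KO it called 78.5% (37.5% as higher, 41.0% as lower), so that being called is not particular to these genes. The median log2 fold change of the 7 members was -0.58 in WT and -0.56 in KO, beside -0.02 and -0.03 over all genes tested.

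Rubcn fell from 95.6, 96.6 and 104.6 CPM to 56.0, 58.3 and 62.3 CPM in WT, with a log2 fold change of -0.75 (-0.85 to -0.65, edgeR FDR 1.58e-14). In KO it fell from 70.4, 72.2 and 75.8 CPM to 44.4, 49.0 and 50.5 CPM, at -0.60 (-0.70 to -0.50, edgeR FDR 3.76e-12). The lowest treated KO library was replicate 2, which stood apart as given above and was the lowest of its group for all 7 members. Without it Rubcn was at -0.55 in KO, all 7 members were still called there, and KO against WT at this time was -0.24 for Rubcn and still called. The treated libraries of WT lay below the untreated libraries of KO. The level after treatment was 59.5% of untreated in WT and 65.9% in KO.

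Atg14 had the largest fall of the members in WT, from 23.5 to 25.5 CPM down to 12.8 to 13.1 CPM, at -0.91 (-1.03 to -0.80, edgeR FDR 7.34e-15), and was at -0.79 in KO. Plekhm1 fell from 94.4, 98.4 and 104.8 CPM to 57.5, 58.6 and 60.0 CPM in WT, at -0.76 (-0.86 to -0.65), and was at -0.84 in KO. The level left in WT was 53.1% for Atg14, 59.2% for Plekhm1 and 59.5% for Rubcn, and the intervals of these 3 genes overlapped.

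The core kinase and the endosomal subunit fell by less. Pik3c3 was at -0.58 in WT (-0.69 to -0.48) and -0.56 in KO, from 61.3 to 62.2 CPM down to 39.6 to 43.7 CPM in WT. Pik3r4 was at -0.41 in WT (-0.51 to -0.31) and -0.56 in KO (-0.66 to -0.45). Uvrag was at -0.37 in WT (-0.45 to -0.29) and -0.34 in KO, and its WT libraries went from 209.9 to 217.3 CPM down to 154.5 to 172.5 CPM. No treated library of these genes overlapped with an untreated one, and the share of all genes without overlap was not counted.

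Becn1 went the other way from the kinase that it binds. The WT libraries rose from 110.1, 111.2 and 112.1 CPM to 145.6, 146.2 and 151.0 CPM and the KO libraries from 105.0, 105.1 and 107.1 CPM to 134.4, 139.1 and 145.6 CPM. The log2 fold changes were 0.41 in WT (0.35 to 0.47, edgeR FDR 7.2e-13) and 0.40 in KO (0.34 to 0.47). This direction depends on the scaling. With total counts the median of all genes moved to -0.42 in WT and -0.37 in KO, Becn1 was then at 0.01 (edgeR FDR 0.853) and 0.06 (FDR 0.0586) and was not called, and the other 6 members were still called lower. Independent of scaling, the log2 ratio of Becn1 to the mean of Pik3c3 and Pik3r4, added after the data were seen, rose from 1.03 to 1.94 in WT and from 0.93 to 1.89 in KO.

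**Figure D4:**
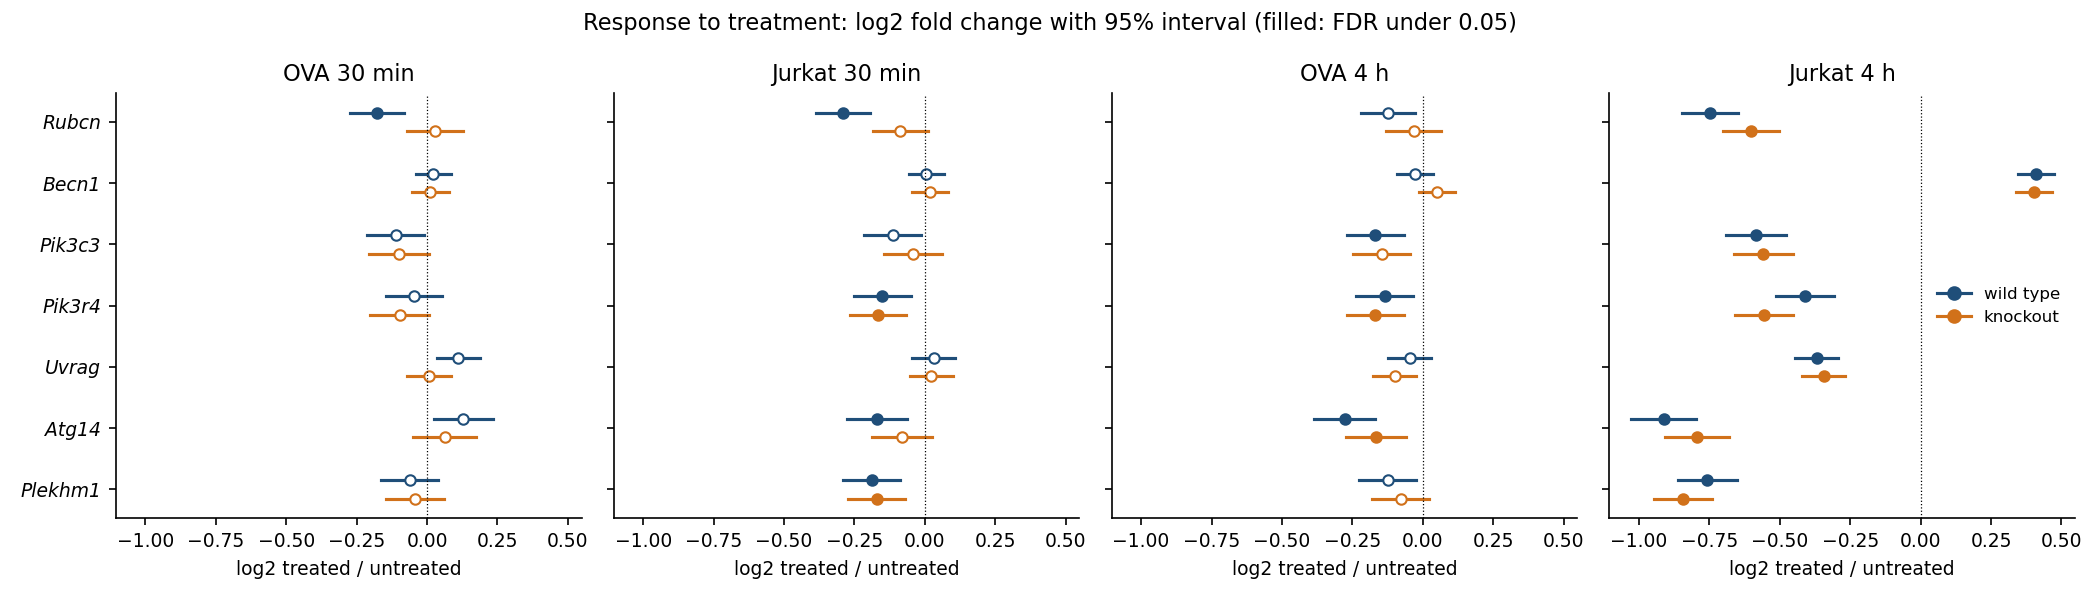
Log2 fold change of each treatment against untreated cells, in WT and KO, with 95% intervals; filled symbols have an edgeR FDR under 0.05. At 4 h of Jurkat cells 6 members lie at -0.34 or below in both genotypes and Becn1 at 0.40 to 0.41, while values in the other 3 treatments stay between -0.29 and 0.13.

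Ratios were used to set Rubcn beside its core partners. The log2 ratio of Rubcn to the mean of Becn1, Pik3c3 and Pik3r4 went from 0.52 to -0.04 in WT and from 0.08 to -0.28 in KO, differences of -0.55 and -0.37 with no overlap (exact permutation p = 0.1, the smallest that the design allows). The ratio of Atg14 to Uvrag also dropped, by -0.54 in WT and -0.45 in KO, without overlap. Set against the mean of all 6 other members, the differences for Rubcn were -0.31 in WT and -0.15 in KO. Becn1 is part of both means, and its own ratio to Pik3c3 and Pik3r4 rose by 0.91 in WT and 0.96 in KO. The drops of the Rubcn ratios thus hold the change in Becn1 as well. On the TMM scale the falls of Rubcn, Pik3c3 and Pik3r4 given above were similar in KO, and Rubcn fell by more in WT. A ratio of Rubcn to Pik3c3 and Pik3r4 alone was not taken.

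The response of the members to 4 h of Jurkat cells was not shown to differ between the genotypes. None of the 7 differences in response was called by edgeR, beside 4.26% of all genes, and DESeq2 also called none. At an unadjusted p under 0.05 there was 1, Rubcn (+0.15, 0.01 to 0.29). Pik3r4 was at -0.14 (-0.29 to 0.00, edgeR FDR 0.268), and the Becn1 difference was -0.01 (-0.10 to 0.08). The other treatments gave none of 7 either. The genes called by edgeR were 0% of all at 30 min of OVA, 0.00675% at 30 min of Jurkat cells and 0.0405% at 4 h of OVA. The members with an unadjusted p under 0.05 were 1, 1 and 0, without a count of all genes at that threshold to set beside them, and DESeq2 called none in any of the 3.

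Marker sums of the dendritic cells themselves moved at 4 h of Jurkat cells as well. The 9 general markers went from 20496 to 23266 CPM in untreated WT libraries to 36887 to 38954 CPM, and in KO from 21090 to 23075 to 34769 to 36918 CPM. The 7 markers of conventional type 2 dendritic cells went from 1627 to 1678 down to 888.9 to 951.6 CPM in WT and from 1710.3 to 1844 down to 1046 to 1114 CPM in KO. The 7 markers of conventional type 1 cells went from 3339.9 to 3457 down to 2714 to 2915 CPM in WT and from 3233 to 3333 down to 2349 to 2661 CPM in KO, and plasmacytoid markers rose in sum to 3052 to 3543 and 2506 to 2758 CPM. Except for the type 2 markers, which all fell, the sums joined genes that moved in opposite ways. In WT means, the general markers Cd74, H2-Aa, H2-Ab1 and Zbtb46 rose, while Flt3, Itgax, Batf3, Ciita and Dpp4 fell. Of the type 1 markers Xcr1, Clec9a and Cadm1 rose, while Irf8, Naaa, Tlr3 and Itgae fell. Plasmacytoid markers split into Bst2, Ly6d, Tcf4 and Klk1, which rose, and Siglech, Ccr9, Pacsin1 and Cox6a2, which fell. The part of these shifts in the members' changes was not tested.

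The 14 low T-lineage genes moved with the Jurkat treatment as given above, from 3.34 to 3.41 CPM in untreated WT to 86.8 to 116.1 CPM at 4 h. All 25 in the table had mean sums of 300.6 CPM in untreated WT and 360.1 CPM at 4 h, and 309.4 and 314.0 CPM in KO. Of the 24 T-lineage genes tested, edgeR called 19 higher and 5 lower in WT, and 16 higher and 6 lower in KO. Of all genes it called 38.9% higher and 40.6% lower in WT, and 37.5% and 41.0% in KO. The part of these markers in the members' changes was not tested. Between genotypes at 4 h of Jurkat cells the sum of the 14 was higher in every WT library than in any KO library, which stands beside the KO against WT values for that condition.

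The other treatments gave smaller changes. After 30 min of Jurkat cells, 4 of 7 members were called in WT, all lower, beside 28.7% of all genes (14.5% lower). Rubcn was at 79.4, 80.5 and 82.6 CPM, all below the untreated WT libraries, with a log2 fold change of -0.29 (-0.39 to -0.19, edgeR FDR 2.97e-05). Plekhm1 (-0.19), Atg14 (-0.17) and Pik3r4 (-0.15) were the other members called. The Atg14 call was lost without WT Jurkat 30 min replicate 2 or untreated replicate 2, and the Pik3r4 call without WT Jurkat 30 min replicate 1 or untreated replicates 2 or 3. In KO, 2 of 7 were called lower (17.0% of all genes, 8.26% lower), Plekhm1 and Pik3r4, both at -0.17. Both calls were lost without KO Jurkat 30 min replicate 1 or untreated replicate 3, Plekhm1 also without Jurkat 30 min replicate 2 and Pik3r4 without untreated replicate 1. Rubcn in KO was at -0.09 (-0.18 to 0.01) and was not called.

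With OVA the members moved little. After 30 min 1 of 7 was called in WT, as lower (10.7% of all genes, 5.15% lower), Rubcn at -0.18 (-0.27 to -0.08, edgeR FDR 0.0132), and this was lost without WT OVA 30 min replicate 1 or untreated replicate 3 and with the compared groups alone. In KO none of 7 was called by edgeR (3.77% of all genes), none had an unadjusted p under 0.05, and DESeq2 called none. After 4 h 3 of 7 were called in WT, all lower (23.5% of all genes, 11.7% lower), Atg14 at -0.28 (-0.38 to -0.17, edgeR FDR 0.000245), Pik3c3 at -0.17 and Pik3r4 at -0.13. The Pik3c3 call was lost without WT OVA 4 h replicate 1, and the Pik3r4 call without WT OVA 4 h replicates 1 or 2 or untreated replicates 2 or 3. Rubcn was at -0.12 there (edgeR FDR 0.0565) and was called with total counts (-0.14, FDR 0.0228) and without WT untreated replicate 1, among other settings. In KO 2 of 7 were called lower (11.6% of all genes, 5.69% lower), Pik3r4 and Atg14, both at -0.17. The Atg14 call was lost without any 1 of the 6 libraries, and the Pik3r4 call without KO OVA 4 h replicates 1 or 2 or untreated replicates 1 or 3. Becn1 was between -0.03 and 0.05 in each of these 6 comparisons at 30 min or with OVA.

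Across the 10 group means the members differed in how closely they followed Rubcn. The Pearson correlation of mean log2 CPM with Rubcn was 0.87 for Uvrag, 0.81 for Pik3c3, 0.81 for Plekhm1, 0.75 for Pik3r4, 0.72 for Atg14 and -0.70 for Becn1. These are descriptions over 10 groups that share the treatments, the 2 groups of 4 h with Jurkat cells lying apart from the rest. The 5 genes most like Rubcn among 10229 genes with a mean of at least 5 CPM were Syne2, Ide, Eno3, Naip6 and Ckap2l, with correlations of 0.98, 0.98, 0.98, 0.97 and 0.97. Syne2 encodes a nuclear envelope protein of the nesprin family and went from 111.6 CPM in untreated WT to 88.0 in untreated KO and to 75.4 in WT at 4 h of Jurkat cells. Ide, insulin-degrading enzyme, went from 158.2 to 121.2 and to 95.5 CPM. Uvrag, the closest partner, ranked 330th on this measure.

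The wider pathway was read from 9 lists of 103 genes, of which 100 were tested. In KO against WT averaged over conditions, 15 were called higher, 22 lower and 63 neither, near the background of 36.4% of all genes called (17.7% higher, 18.7% lower), with a median of -0.00 beside -0.01 over all genes. With total-count scaling the split was 33 higher and 14 lower, beside 3862 of 14808 genes called higher and 10.6% of all genes lower. After 4 h of Jurkat cells 41 were higher and 44 lower in WT and 37 and 43 in KO, beside 79.5% and 78.5% of all genes called. With total counts these splits were 23 and 67 in WT and 25 and 67 in KO, so that the directions given below hold on the TMM scale. Of all genes 59.1% (WT) and 58.0% (KO) were then called lower.

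Among 14 other regulators of the complex, 4 were higher and 3 lower in KO against WT, and 4 and 1 with total counts. Of all genes 17.7% were higher and 18.7% lower, and with total counts 3862 of 14808 were higher and 10.6% lower. Rubcnl (Pacer), a Rubicon relative that promotes autophagosome maturation, was at -0.12 (SE 0.0187, edgeR FDR 6.02e-06), with untreated levels of 102.5 ± 1.79 CPM (WT) and 95.5 ± 3.40 CPM (KO). Dapk1, a kinase that phosphorylates Beclin 1, was at 0.13 (FDR 6.84e-06). Its gap was widest at 4 h of Jurkat cells, with means of 30.8 CPM (WT) and 40.9 CPM (KO). Untreated means were 42.1 and 42.9 CPM, and at 30 min of Jurkat cells KO was lower, at 41.8 against 43.5 CPM. With OVA KO was higher, at 44.7 against 41.8 CPM at 30 min and 44.4 against 39.6 CPM at 4 h. After 4 h of Jurkat cells in WT, 9 of these 14 were higher and 4 lower, with a median of 0.26, and with total counts 5 were higher and 6 lower. Of all genes 38.9% were higher and 40.6% lower, and with total counts 3570 of 14808 were higher and 59.1% lower. Bcl2l1, which encodes the Beclin 1 binding protein BCL-XL, rose from 17.2 ± 0.46 to 271.9 ± 11.5 CPM, a log2 fold change of 3.99 (SE 0.0939). Sh3glb1, whose product binds UVRAG, rose from 160.0 ± 10.3 to 451.8 ± 30.3 CPM. Rubcnl rose, by 0.68, while Rubcn fell in the same libraries. Of the 3 other genes with a Rubicon homology domain, Rubcnl and Plekhm3 (-0.13) were lower in KO against WT and Def8 (0.01) was not called, and at 4 h of Jurkat cells Def8 (-0.47) and Plekhm3 (-0.50) fell.

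The ULK complex, the kinase that acts upstream of class III PI3K in canonical autophagy, and its ATG9 system fell at 4 h of Jurkat cells in 8 of 8 genes tested, in both genotypes and under total-count scaling too. Of all genes 40.6% were called lower in WT and 41.0% in KO with TMM, and with total counts 59.1% and 58.0%. The median was -0.66 in WT and -0.53 in KO, and Ulk2 (-1.25) and Atg2b (-1.10) were those with the smallest p in WT. Between genotypes, Ulk1 (0.10) and Atg13 (0.04) were higher and none of the 8 was lower, beside 17.7% of all genes higher and 18.7% lower. Over the 3 conditions without Jurkat cells 0 of the 8 were called, where edgeR called 4182 of 14808 genes. With total counts 7 of the 8 were called higher over all 5, where 3862 of 14808 genes were called higher.

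NADPH oxidase 2, whose activity LC3-associated phagocytosis requires and which Rubicon is known to stabilise, had 5 of 7 tested genes higher in WT at 4 h of Jurkat cells, with a median of 1.04, and with total counts 4 were higher. Cybb, the catalytic subunit, rose from 732.0 ± 41.8 to 2314 ± 211.1 CPM (log2 fold change 1.66, SE 0.0673) and Ncf1 from 452.6 ± 8.14 to 1113 ± 98.8 CPM (1.30). Between genotypes, Cybb was at -0.22 (SE 0.0294, edgeR FDR 7.2e-07) and Ncf1 at -0.12 (FDR 4.7e-06), with Rac2 lower (-0.10) and Rac1 higher (0.05), a split of 1 higher and 3 lower that was 3 and 3 with total counts. Of all genes 38.9% were higher and 40.6% lower at 4 h in WT, and 17.7% and 18.7% between genotypes. With total counts 3570 of 14808 genes were higher and 59.1% lower at 4 h in WT, and 3862 and 10.6% between genotypes.

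Genes of LC3 conjugation, the step that follows PI3P, changed in both directions. With 4 h of Jurkat cells in WT, 5 of 16 were higher and 7 lower, with Atg16l2 (-1.20) and Atg7 (-0.88) lower, and in KO against WT 1 was higher, Map1lc3a (0.24, from 9.89 ± 0.53 to 12.5 ± 0.30 CPM in untreated cells), and 2 were lower, Atg4d (-0.11) among them. With total counts the LC3 conjugation genes split into 3 higher and 13 lower at 4 h and into 5 and 2 between genotypes. Readers of PI3P had 6 of 12 higher and 4 lower at 4 h of Jurkat cells in WT, with Zfyve26 at 1.23 and Wdr45 at -1.39. In KO against WT 3 were higher and 2 lower, with Wipi1 at 0.27, on levels of 4.14 and 4.79 CPM in untreated WT and KO, and the early endosome tether Eea1 at -0.11. For the readers total counts gave 2 higher and 8 lower at 4 h and 5 and 1 between genotypes. Beside both lists, 38.9% of all genes were higher and 40.6% lower at 4 h in WT, and 17.7% and 18.7% between genotypes. With total counts 3570 of 14808 genes were higher and 59.1% lower at 4 h in WT, and 3862 and 10.6% between genotypes.

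Enzymes that turn PI3P over had 5 of 13 higher and 6 lower at 4 h of Jurkat cells in WT (3 and 8 with total counts). The PI3P phosphatase gene Mtmr14 was at 1.13 and the lipid phosphatase gene Fig4 at -1.17. In KO against WT 4 of these 13 were lower and none higher by edgeR at FDR under 0.05, Mtm1 (-0.17) and Mtmr14 (-0.11) among them, and with total counts 3 were higher and 3 lower. Among 17 genes of RAB5, RAB7 and the HOPS tether, 7 were higher and 7 lower at 4 h, with Rab7 at 0.90 and Rab7b at -1.24, and in KO against WT 1 was higher and 5 lower, Ccz1 (-0.09) and Vps39 (-0.07) among them. Scaled to total counts, these 17 split into 3 higher and 12 lower at 4 h and into 2 and 2 between genotypes. Genes of class I PI3K, which makes the lipid PIP3, and of class II PI3K, which also makes PI3P, were split at 4 h into 4 higher and 5 lower of 11, with Pik3r5 at 2.18 and Pik3cg at -1.49, and in KO against WT into 3 higher and 2 lower, with Pik3r2 at 0.15 and Pik3r1 at -0.10. Their splits with total counts were 3 higher and 7 lower at 4 h and 4 and 1 between genotypes. Beside the lists of turnover, RAB and PI3K genes, 38.9% of all genes were higher and 40.6% lower at 4 h in WT. Between genotypes the shares were 17.7% and 18.7%. With total counts 3570 of 14808 genes were higher and 59.1% lower at 4 h in WT, and 3862 and 10.6% between genotypes.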

How the data were processed

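RNA of 30 samples was made into TruSeq RNA v2 libraries, per the labels' protocols. The file that the authors deposited holds counts as whole numbers for each gene, with mm10 intervals, per the file headers. The submitters' processing notes name STAR 2.5, Subread, featureCounts 1.5.0-p1 and DESeq2, with no role or order. The sources used here do not give the use of strand or the handling of human reads.

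Genes were kept with filterByExpr by group. They held 99.99% of counts. All 30 libraries were fitted with edgeR 4.0.16 (R 4.3.3, quasi-likelihood F test, two-sided, TMM, 1 mean per group) in 18 contrasts. A call is a Benjamini-Hochberg adjusted p (FDR) under 0.05 over 14808 genes. The script was tested on simulated data. Intervals are 95%, from the standard error. Members and lists were chosen with earlier results of these data known, so their counts are descriptions. Of each list are named the 2 genes of smallest p among those called with at least 5 CPM in 1 group, in KO against WT averaged and in WT at 4 h of Jurkat cells; others were named after their values were seen. The result of 1 list gene is not reported here. Alternatives were DESeq2 1.42.0, its size factors, total counts, other filters (none, or 5 CPM in 3 libraries), a replicate block, the compared groups alone, leaving out each library and, added later, the average without Jurkat cells. Same-numbered samples did not deviate together: the 135 correlations had a median of 0.0041, and in 0 of 45 pairs of groups were all 3 over 0.1. The labels give no batch. No 2 libraries of a group agreed within sampling noise.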

Additional observations from a re-analysis of the deposited data

How the results depend on the processing

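All 7 members kept their calls at 4 h of Jurkat cells in both genotypes under the alternatives run, except Becn1 with total counts, where 6 were called. Counts of members called moved by over 1.5 times in other comparisons, and the cause was not tested. In KO against WT, 2 were called at 4 h of Jurkat cells (1 main) with DESeq2's size factors, with total counts and with DESeq2, 2 in untreated cells (1 main) with DESeq2, and 1 at 4 h of OVA (2 main) with no filter. Of all genes, 3606 and 4010 of 14808 and 3416 of 13837 were called in the first 3 (3392 of 14808 main). In the last 2 it was 1547 of 13456 (1477 of 14808 main) and 1781 of 19926 (1861 of 14808 main). At 4 h of OVA in WT, 5 were called (3 main) with DESeq2's size factors, total counts and DESeq2. Of all genes, 3535 and 3586 of 14808 and 3463 of 13837 were called there, against 3484 of 14808 in the main fit. In KO the count was 1 with no filter and 4 with the stricter filter and DESeq2 (2 main). Of all genes, 1532 of 19926, 1874 of 10657 and 1848 of 12315 were called there (1722 of 14808 main). At 30 min of OVA in WT, 2 were called (1 main) with the stricter filter, total counts and DESeq2, and 0 with the compared groups alone. Of all genes, 1730 of 10657, 1566 of 14808, 1660 of 11935 and 833 of 13683 were called there (1578 of 14808 main). At 30 min of Jurkat cells in KO, 1 was called (2 main) with the compared groups alone, beside 1460 of 13878 genes (2514 of 14808 main). The Rubcn ratio change at 4 h of Jurkat cells was -0.31 in WT and -0.15 in KO against all 6 other members. No called member and no ratio changed sign. Signs of single list genes were not compared between settings, and their splits into higher and lower turned over with total counts where the report gives both.

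Leaving out 1 library gave 0 to 2 members called at 30 min of Jurkat cells in KO and 2 to 4 in WT, 0 to 1 at 30 min of OVA in WT, and 0 to 1 (KO) and 1 to 5 (WT) at 4 h of OVA. In KO against WT it gave 1 at 4 h of OVA, 1 to 2 at 4 h of Jurkat cells and 2 to 3 at 30 min of OVA, and 4 in the average. List genes called were 36 to 44 in KO against WT.

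The labels do not say whether same-numbered samples share mice or cultures, and with 3 libraries per group the correlations given above cannot settle it. With the replicate block, 4 members were called in KO against WT averaged and 7 at 4 h of Jurkat cells in each genotype, as without it, and Rubcn at 4 h of OVA in WT became called (-0.12, edgeR FDR 0.0454). Total counts moved the share of calls that were higher from 48.9% to 29.0% at 4 h of Jurkat cells in WT, from 47.8% to 29.2% in KO, from 48.6% to 71.2% in KO against WT averaged and from 40.9% to 74.8% at 4 h of Jurkat cells. Calls over all genes fell from 1578 to 833 (30 min of OVA, WT), 558 to 246 (same, KO), 2514 to 1460 (30 min of Jurkat cells, KO), 1370 to 891 (KO against WT there) and 631 to 337 (difference in response, 4 h of Jurkat cells) with the compared groups alone. DESeq2 moved the share higher in KO against WT from 50.5% to 39.6% at 30 min of OVA and from 60.2% to 50.03% in untreated cells. Leaving out 1 library also lowered all-gene counts by over 1.5 times. In KO against WT, 1834 calls at 30 min of OVA became 718 (without KO replicate 2) and 1075 (WT 2), 1370 at 30 min of Jurkat cells became 708 (WT 2), 808 (KO 3) and 894 (WT 1), 1861 at 4 h of OVA became 1172 (KO 1) and 1226 (WT 1), 3392 at 4 h of Jurkat cells became 2188 (WT 2), and 1477 in untreated cells became 898 (KO 1) and 984 (WT 2). Against untreated cells, 558 at 30 min of OVA in KO became 173 and 287 (OVA 2 and 3) and 334 and 361 (untreated 2 and 3), 1578 in WT became 903 and 966 (OVA 1 and 2) and 907 and 1043 (untreated 2 and 3), 1722 at 4 h of OVA in KO became 1105 and 1139 (OVA 1 and 3), and 2514 at 30 min of Jurkat cells in KO became 1674 (Jurkat 1). The 631 differences in response at 4 h of Jurkat cells became 362 to 416 without WT or KO untreated replicate 2, KO untreated replicate 1, WT Jurkat replicate 2 or KO Jurkat replicate 3. At 4 h of OVA 6 became 3 (KO untreated 2) or 15 (WT OVA 3), and at 30 min of Jurkat cells 1 became 0 to 81, the last without KO Jurkat replicate 2. Atg14, with 308 to 1351 counts per library, is the member that depth limits most.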
